A study of Mus musculus with 12 samples.

Results

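Notch1, Dll1, Dll4, Hes1, Atoh1, Spdef and Gfi1, a receptor, ligands and transcription factors of the Notch pathway and of secretory cell fate, were followed through single cells of the mouse small intestinal epithelium. The 7 genes were chosen by name, and all 7 were among the 20090 genes of the expression table. The study had 12 samples, and the 8 analysed here, the diet group, held epithelial cells (CD45-, EpCAM+) of adult Lgr5DTR-GFP mice. No diet is named for any of the 8. Each intestine had been cut into 30 equal lengths, whose cells were marked with a lipid-anchored DNA barcode (MULTI-seq), sorted and read by 3' droplet sequencing. All groups of the series share the Lgr5DTR-GFP strain, in which a diphtheria toxin receptor and GFP are placed at Lgr5, the stem cell marker. The other groups, 2 samples of total epithelium and 2 of progenitors, were not analysed here.

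In the crypt, Notch is a signal between neighbouring cells. Dll1 and Dll4 on one cell bind Notch1 on the next, the receptor is cut, and its inner part enters the nucleus and acts with Rbpj to switch on Hes1. Hes1 represses Atoh1, so a cell that receives the signal keeps dividing or becomes an absorptive enterocyte. A cell that escapes it turns on Atoh1, which commits it to the secretory lineage of goblet, Paneth and enteroendocrine cells and raises its own ligands. Gfi1 and Spdef act after Atoh1. Gfi1 holds back the enteroendocrine programme, and Spdef drives maturation of goblet and Paneth cells. Tuft cells sense luminal contents.

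In the mouse build GRCm38, Notch1 lies at chr2:26457903-26516663 (minus strand), Dll1 at chr17:15367354-15376872 (minus), Dll4 at chr2:119325784-119335962 (plus) and Hes1 at chr16:30064384-30067796 (plus). Atoh1 lies at chr6:64729125-64731245 (plus), Spdef at chr17:27714352-27728955 (minus) and Gfi1 at chr5:107716657-107726036 (minus). The 250 bases before the start of Atoh1, Dll1, Dll4 and Spdef are shown. Dll1, Dll4 and Spdef were each found in pairs with Atoh1 in crypt cells more often than expected from their shares. They were taken from RefSeq (GRCm38.p6) and run 5' to 3' on the gene's strand, with a motif match in capitals. The windows are chr6:64728875-64729124 (plus) for Atoh1, chr17:15376933-15377182 (minus) for Dll1, chr2:119325534-119325783 (plus) for Dll4 and chr17:27728952-27729201 (minus) for Spdef.
Atoh1: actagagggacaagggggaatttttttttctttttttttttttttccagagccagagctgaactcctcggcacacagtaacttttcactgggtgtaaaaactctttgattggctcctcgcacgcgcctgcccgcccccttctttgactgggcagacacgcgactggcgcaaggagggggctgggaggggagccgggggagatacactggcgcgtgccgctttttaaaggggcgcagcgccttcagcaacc
Dll1: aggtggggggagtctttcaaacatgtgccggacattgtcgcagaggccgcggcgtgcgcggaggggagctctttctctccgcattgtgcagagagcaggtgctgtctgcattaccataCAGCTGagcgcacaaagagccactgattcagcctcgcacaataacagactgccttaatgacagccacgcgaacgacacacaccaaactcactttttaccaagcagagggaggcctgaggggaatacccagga
Dll4: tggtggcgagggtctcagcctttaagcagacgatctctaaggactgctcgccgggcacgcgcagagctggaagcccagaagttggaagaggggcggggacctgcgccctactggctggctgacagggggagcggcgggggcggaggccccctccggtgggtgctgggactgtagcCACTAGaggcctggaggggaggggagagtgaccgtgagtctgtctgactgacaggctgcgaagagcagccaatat
Spdef: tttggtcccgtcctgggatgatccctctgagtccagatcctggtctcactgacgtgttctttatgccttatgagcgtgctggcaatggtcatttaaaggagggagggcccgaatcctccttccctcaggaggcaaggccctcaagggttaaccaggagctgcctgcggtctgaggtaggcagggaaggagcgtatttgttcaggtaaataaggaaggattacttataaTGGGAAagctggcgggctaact
The motifs searched on both strands were TGGGAA, the core bound by Rbpj, CAGCTG, an E-box of the type bound by Atoh1, and CACNAG, the N-box bound by Hes factors. The Dll1 window shown held CAGCTG at position -132 from its start, and the window before the other annotated Dll1 start, chr17:15375824-15376073, held none of the motifs. The Dll4 window held CACTAG at -75 and the Spdef window TGGGAA at -22. The Atoh1 window held none of the 3 motifs. Of 32851 windows of the same length, 13.0% held CAGCTG, 36.7% CACNAG and 21.6% TGGGAA, so each match is of a common kind and is a description of letters only. Windows were matched for 6 of the 7 genes, and Hes1 was not matched.

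The deposited values were whole numbers that did not behave as raw molecule counts, so their depth is unknown. Levels are therefore given as ppm, a gene's summed value per 1000000 of the total over all genes. After filtering, 27834 cells remained, in 8 sets distinguished by the ending of their barcode. The sets could not be tied to the sample titles, so all cells were treated as 1 pooled sample, no test was made, and the range over sets stands in for error. The series' design text speaks of 2 small intestines, fewer than the 8 sets, so sets may share an animal and their range may be partly technical. A set held 2280 to 5320 cells with median detected genes of 1695 to 2576, and 80 pairs of barcodes were shared between sets. Clusters were made without the 7 genes and without the other pathway genes, and were named from markers. They gave 4505 stem-like cells, 3207 cycling-like cells, 1640 goblet-like cells, 676 enteroendocrine-like cells, 388 tuft-like cells and 4295 enterocyte-like cells. The other 13123 cells, 47.2%, lay in clusters left unnamed. The secretory classes came largely from sets 4 and 7, which held 807 and 593 of the goblet-like cells, and 524 of the enteroendocrine-like and 303 of the tuft-like cells were in set 7. A class was called higher or lower than another where the mean of both was at least 10 ppm, the difference was at least 1 on the log2 scale with 1 ppm added, and every set with at least 10 cells of both classes had the same direction.

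The classes carried their own markers. The 15 goblet markers summed to 19420 ppm in goblet-like cells and 3005 ppm in enterocyte-like cells, the enteroendocrine markers to 12260 and 635 ppm, and the tuft markers to 1441 and 78.8 ppm. Markers of other classes were also found in them. All 16 enterocyte markers were above 0 in goblet-like cells, with a sum of 25260 ppm (631 to 43980 over sets) against 63910 ppm (45180 to 78500) in enterocyte-like cells. All 15 goblet markers were above 0 in enteroendocrine-like and tuft-like cells, at 6931 ppm (1542 to 20820) and 7947 ppm (6214 and 22030 in the sets with enough cells). T cell markers summed to at most 2.90 ppm in any of the 6 classes, and of the 6 in the table Cd3e, Cd3g, Trac, Cd8a and Gzmb were at 0 in goblet-like cells.

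Notch1, the receptor, was high in the crypt and low in the villus. Its level was 79.5 ppm in stem-like cells, 59.2 ppm in cycling-like cells and 2.98 ppm in enterocyte-like cells. In stem-like cells the 8 sets read 92.3, 81.8, 72.9, 83.6, 84.0, 70.1, 73.4 and 78.5 ppm, and in cycling-like cells 52.2, 57.6, 50.4, 72.0, 65.4, 59.7, 62.9 and 59.2 ppm. These ranges overlapped at 70.1 to 72.0 ppm, but stem-like cells were above cycling-like cells in 8 of 8 sets, by 0.42 on the log2 scale, which is under the size set for a call. None of the 7 genes was called between these classes, where 4.44% of all genes were higher and 4.12% lower in stem-like cells. In enterocyte-like cells the sets ran from 1.46 to 6.44 ppm with a median of 2.71, far below both. Tuft-like cells at 25.8 ppm, enteroendocrine-like cells at 22.9 ppm and goblet-like cells at 14.1 ppm lay between and could not be ordered, since the goblet-like sets spanned 0 to 31.2 ppm and the enteroendocrine-like sets 0 to 33.7 ppm. At least 1 unit of Notch1 was found in 36.7% of stem-like cells and in 1.61% of enterocyte-like cells.

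Hes1, the repressor that Notch switches on, was also highest in the crypt. It stood at 86.7 ppm in stem-like cells, 87.1 ppm in cycling-like cells and 18.5 ppm in enterocyte-like cells. The stem-like sets ran from 69.3 to 106.5 ppm with a median of 84.9, the cycling-like sets from 70.1 to 147.3 ppm with a median of 78.5, and the enterocyte-like sets from 15 to 32.7 ppm with a median of 17.4. The stem-like range lay almost wholly inside the wider cycling-like one, and both lay above the enterocyte-like range. Goblet-like, enteroendocrine-like and tuft-like cells, at 39.2, 37.9 and 42.3 ppm, overlapped one another, and the goblet-like sets spread from 12.8 to 84.9 ppm. Against enterocyte-like cells, Notch1 was higher in stem-like cells by 4.34 on the log2 scale (3.32 to 5.25 over sets) and Hes1 by 2.17 (1.27 to 2.56). In stem-like cells 3 of the 7 genes passed 10 ppm, Notch1 only through its high class, and 2 of them were called higher, beside 33.3% of all genes that passed. The same 2 of 3 were called in cycling-like cells, Notch1 by 3.92 and Hes1 by 2.17, beside 32%. With 3 genes, 1 of which had to differ, nothing is read from these counts. In tuft-like cells 1 of the 7 genes, Notch1, was called higher, by 2.75, beside 16.8% of all genes. It passed 10 ppm only through tuft-like cells, and the 2 sets that could be compared gave 1.84 and 1.97, below the pooled value.

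**Figure D1:**
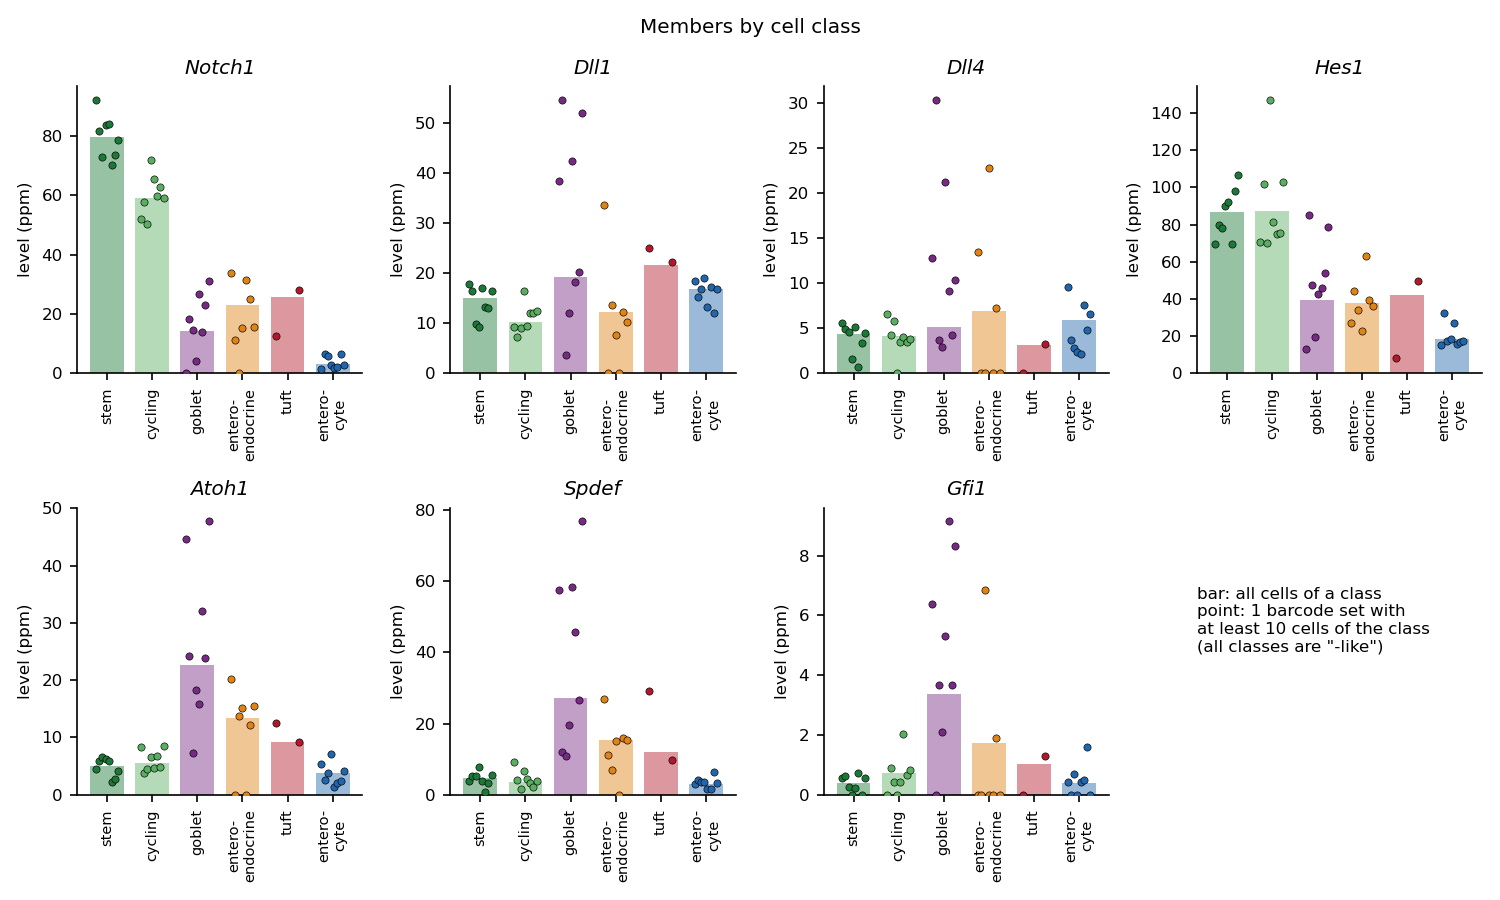
Level of each of the 7 genes (ppm) in the 6 named classes. Bars give the level over all cells of a class, points the level in each barcode set with at least 10 cells of that class. Notch1 and Hes1 are highest in stem-like and cycling-like cells, and Atoh1 and Spdef are highest in goblet-like cells, at 22.6 and 27.2 ppm.

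Neither ligand was called higher or lower in any of the classes compared. Dll1, which presents the signal to neighbours, was at 14.9 ppm in stem-like cells, 10.3 ppm in cycling-like cells, 19.2 ppm in goblet-like cells, 12.2 ppm in enteroendocrine-like cells, 21.7 ppm in tuft-like cells and 16.7 ppm in enterocyte-like cells. The sets ran from 9.29 to 17.9 ppm in stem-like cells and from 12.1 to 19.0 ppm in enterocyte-like cells, which overlap, while goblet-like sets spread from 3.66 to 54.6 ppm. Dll1 was lower in cycling-like than in enterocyte-like cells in 8 of 8 sets, at a log2 difference of -0.65, under the size set for a call. Dll4, the other ligand, was under 10 ppm in every class, from 3.10 ppm in tuft-like cells to 6.95 ppm in enteroendocrine-like cells, and its sets overlapped in all 6 classes. It was found in 2.49% of stem-like, 2.53% of cycling-like, 2.32% of goblet-like and 3.17% of enterocyte-like cells.

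Atoh1, which opens the secretory programme, was highest in goblet-like cells. Its level was 22.6 ppm there, 13.3 ppm in enteroendocrine-like cells, 9.28 ppm in tuft-like cells, 5.54 ppm in cycling-like cells, 5.08 ppm in stem-like cells and 3.70 ppm in enterocyte-like cells. The 8 goblet-like sets read 44.8, 24.3, 7.32, 18.3, 15.9, 32.0, 23.8 and 47.8 ppm. Each was above each stem-like set (2.19 to 6.65 ppm) and above each enterocyte-like set (1.29 to 7.13 ppm), the lowest by a small margin. The cycling-like sets, 3.81 to 8.42 ppm, overlapped those of stem-like cells. Atoh1 was found in 9.63% of goblet-like cells, 2.91% of stem-like cells, 3.15% of cycling-like cells and 2.10% of enterocyte-like cells, an absorptive class that should lack it. Median detected genes were 1703.5, 2687, 2949 and 2294 in these classes, so the class with the largest share had the fewest detected genes. The shares in stem-like and cycling-like cells lie close to that background and are not read as expression by themselves.

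Spdef and Gfi1, which act after Atoh1, had their highest levels in the same class. Spdef was at 27.2 ppm in goblet-like cells, 15.4 ppm in enteroendocrine-like cells, 11.9 ppm in tuft-like cells, 4.57 ppm in stem-like cells, 3.58 ppm in cycling-like cells and 2.98 ppm in enterocyte-like cells. Its 8 goblet-like sets read 57.5, 12.1, 11.0, 19.6, 58.4, 45.8, 26.6 and 76.9 ppm, all above the highest enterocyte-like set at 6.44 ppm and the highest stem-like set at 7.74 ppm. Gfi1 was at 3.38 ppm in goblet-like cells, 1.74 ppm in enteroendocrine-like cells and 0.377 ppm in enterocyte-like cells. It stayed under 10 ppm in every class, and was found in 1.40% of goblet-like cells. Its goblet-like sets, 0 to 9.15 ppm, overlapped those of enterocyte-like cells, 0 to 1.61 ppm.

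Atoh1 and Spdef were called higher in goblet-like than in enterocyte-like cells, 2 of the 7 genes beside 11.5% of all genes tested. The log2 difference was 2.33 for Atoh1 (0.80 to 3.42 over sets) and 2.83 for Spdef (1.33 to 4.45), and both were higher in 8 of 8 sets. Here 4 of the 7 genes passed 10 ppm, Atoh1 and Spdef only through goblet-like cells. Hes1 was higher by 1.04 in 7 of 8 sets and Gfi1 by 1.67 in 7 of 8 sets, and neither was called. Against stem-like cells, Atoh1 (1.95) and Spdef (2.34) were again called higher in goblet-like cells, beside 3.52% of all genes, and Notch1 was called lower, at -2.42, beside 11.2%. Atoh1 and Spdef again passed 10 ppm only through goblet-like cells. Hes1 was lower than in stem-like cells in 7 of 8 sets, at -1.12. Against tuft-like cells, 1 of the 7 genes was called, Atoh1, higher in goblet-like cells by 1.20 beside 2.99% of all genes. It passed 10 ppm only through goblet-like cells, and only 2 sets could be compared, at 0.51 and 1.29. Between goblet-like and enteroendocrine-like cells none of the 7 was called, where 0.15% of all genes were higher and 1.31% lower, although Atoh1 was above by 0.72 in 7 of 7 sets. In enteroendocrine-like against enterocyte-like cells none was called higher either, beside 10.6% of all genes, and Notch1 was above by 2.58 in 6 of 7 sets. Goblet markers also ran at 6931 ppm in enteroendocrine-like and 7947 ppm in tuft-like cells, against 3005 ppm in enterocyte-like cells, and their part in the Atoh1 and Spdef levels of these classes was not tested.

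Among goblet-like cells, Atoh1, Spdef and Notch1 were higher in one cluster, number 18, than in the other, number 12. Cluster 18 (688 cells, 521 of them in set 7) was led by Retnlb, Agr2, Kcnma1 and Ccl9. Cluster 12 (952 cells, 799 of them in set 4) was led by Ccdc152, Fcgbp, Frmd3 and Clca1, and its leading 10 genes included the mucus gene Muc2. Atoh1 was at 29.9 ppm in cluster 18 and 16.4 ppm in cluster 12, and Spdef at 36.5 and 19.4 ppm. Notch1 was at 26.6 and 3.44 ppm, Hes1 at 56.7 and 24.3 ppm, Dll1 at 26.1 and 13.4 ppm, Dll4 at 7.60 and 3.01 ppm, and Gfi1 at 4.56 and 2.37 ppm. These pooled levels were higher in cluster 18 for all 7 genes, but the clusters come mostly from different sets. Within the 3 sets with at least 10 cells of both, cluster 18 was higher in 3 of 3 for Notch1, Atoh1 and Spdef. It was higher in 2 of 3 for Hes1, Dll4 and Gfi1, and in 1 of 3 for Dll1. Of these, set 3 held only 15 cells of cluster 18 and 31 of cluster 12, and set 6 held 23 and 14. In set 3 Atoh1 was at 9.733 ppm in cluster 18 and 5.865 ppm in cluster 12, too few cells to settle a direction. The comparison therefore rests mainly on set 7. In set 7, with 521 and 72 cells, Atoh1 was at 26.0 ppm in cluster 18 and 9.32 ppm in cluster 12 and Spdef at 28.8 and 11.7 ppm, while Hes1 was at 52.0 and 67.6 ppm and Dll1 at 19.3 and 25.6 ppm. Median detected genes were 2183 in cluster 18 and 1538.5 in cluster 12, and their part in these levels was not tested. Cells with at least 2 of Dll1, Dll4, Atoh1, Spdef and Gfi1 made up 9.30% of cluster 18, 4.88% of all goblet-like cells, 1.96% of cycling-like cells and 0.745% of enterocyte-like cells.

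**Figure D2:**
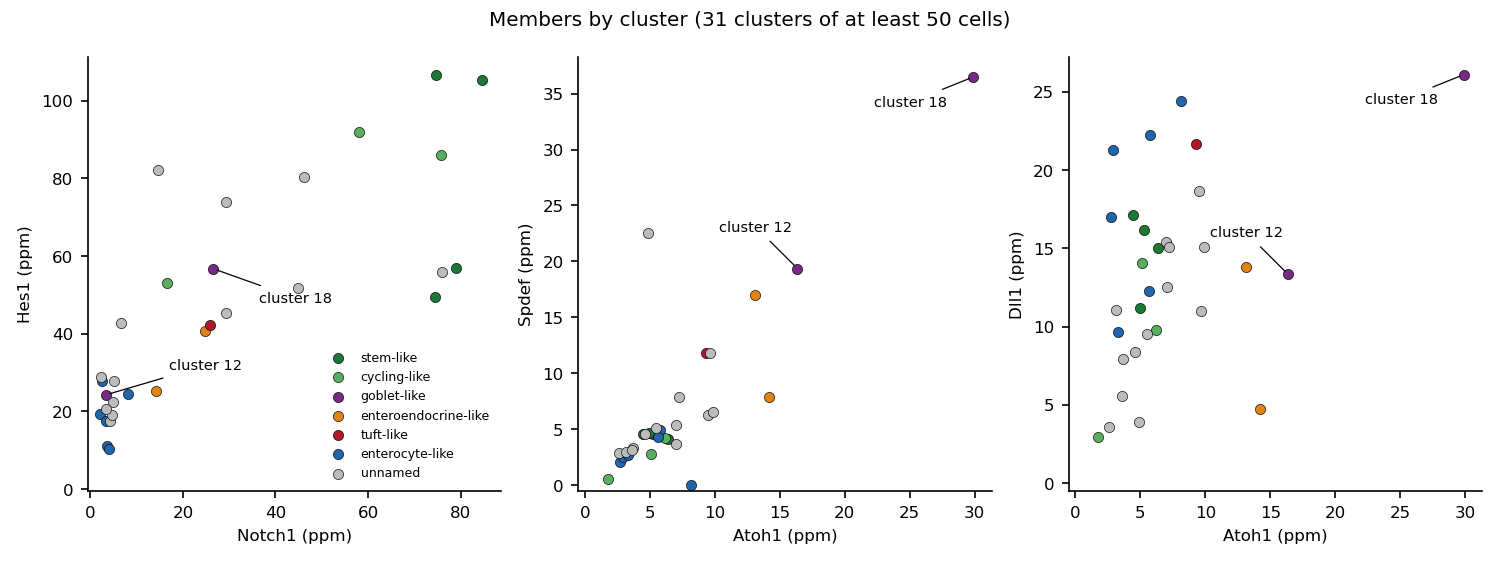
Levels (ppm) in the 31 clusters of at least 50 cells, coloured by class, with the goblet-like clusters 12 and 18 marked. From left to right the axes are Notch1 and Hes1, Atoh1 and Spdef, and Atoh1 and Dll1. Cluster 18 has the highest Atoh1, at 29.9 ppm, and the highest Spdef and Dll1, at 36.5 and 26.1 ppm.

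Over the 31 clusters of at least 50 cells, Notch1 and Hes1 levels had a correlation of 0.85, Atoh1 and Spdef of 0.71, Atoh1 and Gfi1 of 0.66 and Spdef and Gfi1 of 0.60. These are descriptions, since the clusters share sets and differ in detected genes. The gene whose levels were most like those of Atoh1, among 9277 genes, was Selenom at 0.90, followed by Ccl6 at 0.89, Hepacam2, Kcnma1 and Spink4. For Spdef the first was 9030622O22Rik at 0.92, followed by Ano7, Mmp7, Sytl2 and Agr2. For Notch1 the first was Map3k20 at 0.97, followed by Igf1r, Adnp, Gm26901 and Mcc, and for Hes1 it was Prr12 at 0.93, followed by Kat2a, Utp25, Rpp38 and AI506816. Dll4 reached 0.74 (Myo9b), Dll1 0.64 (Akap9) and Gfi1 0.62 (Kcnma1), so no gene was closely like these 3.

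The few crypt cells that held Atoh1 also held the ligands more often than the rest of their class. Among 3207 cycling-like cells, 101 had Atoh1. Dll1 was found in 24 of these, 23.8% (95% exact binomial interval 15.9 to 33.3%, counting error only), and in 5.22% (4.46 to 6.06%) of the 3106 without Atoh1. The share was higher with Atoh1 in 8 of 8 sets, where a set held 2 to 25 such cells. Dll4 was found in 16 of the 101 cells, 15.8% (9.34 to 24.5%), and in 2.09% (1.62 to 2.66%) of the others, and the share was higher in 7 of 8 sets, with 0 in both groups in set 4. Spdef was found in 13 cells, 12.9% (7.04 to 21.0%), against 1.84% (1.39 to 2.37%), higher in 6 of 8 sets. For both ligands and Spdef these intervals did not overlap, but they treat pooled cells as independent and leave out the spread over sets. By set, Dll1 shares were 11.1 to 100% with Atoh1 and 4.16 to 6.22% without, which do not overlap. Those of Dll4 did overlap, at 0 to 22.2% and 0 to 3.125%, as did those of Spdef, at 0 to 27.3% and 0.889 to 5.0%.

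Hes1 ran the other way in cycling-like cells, and Notch1 was close in both groups. Hes1 was found in 29.7% (21.0 to 39.6%) of the 101 cells with Atoh1 and in 40.8% (39.1 to 42.5%) of the others. It was lower with Atoh1 in 8 of 8 sets, although the intervals overlap slightly and the set shares, 0 to 50% with Atoh1 and 33.3 to 56.3% without, overlap. Notch1 was found in 32.7% (23.7 to 42.7%) and 30.8% (29.2 to 32.5%). Gfi1, found in 4 of the 101 cells, 3.96% (1.09 to 9.83%), and in 0.354% of the others, was too rare to compare by set.

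In levels, Dll1 was at 52.9 ppm in cycling-like cells with Atoh1 and 8.87 ppm in those without. In sets 1 to 8 the level with Atoh1 was 55.7, 28.7, 28.5, 200.9, 27.6, 34.8, 90.1 and 53.9 ppm, and without it 6.86, 6.66, 8.44, 6.89, 8.88, 11.2, 9.81 and 10.5 ppm. The groups did not overlap, and the reading of 200.9 ppm rests on 2 cells. Dll4 was at 28.7 and 3.30 ppm overall. By set it read 37.1, 19.1, 42.8, 0, 13.8, 52.2, 24.6 and 30.0 ppm with Atoh1, and at most 4.90 ppm without. Apart from set 4, the groups did not overlap. Hes1 was at 54.4 and 88.2 ppm, a log2 difference of -0.69, lower in 5 of the 5 sets with at least 10 cells with Atoh1. This is under the size for a call, and 0.698% of all genes were called lower.

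Dll1 (2.45 on the log2 scale, 1.54 to 3.08 over those 5 sets) and Dll4 (2.79, 1.85 to 3.12) were called higher in cycling-like cells with Atoh1, beside 0.594% of all genes tested. Spdef, at 24.2 and 2.89 ppm, was higher by 2.69 in 4 of 5 sets and was not called. Dll1, Dll4 and Spdef passed 10 ppm only through the cells with Atoh1, so that a difference had to follow from passing. In stem-like cells, 131 of which held Atoh1, 1 of the other 6 genes was called, Dll1, at 41.2 and 14.1 ppm (1.48, 5 of 5 sets), beside 0.166% of all genes higher and 0.176% lower. Over all 8 sets its share of cells was higher with Atoh1 in 6 and lower in 2, in sets that held 3 to 46 such cells, and the shares of Dll4 and of Spdef were higher in 5 and lower in 3. Dll4 was at 17.5 and 3.96 ppm there, higher in 4 of 5 sets, and Spdef at 15 and 4.26 ppm, higher in 5 of 5 sets, with a mean under 10 ppm. Hes1, at 78.6 and 86.9 ppm, was close to equal in stem-like cells, and Gfi1 was found in 0 of the 131 cells (upper limit 2.78%). In goblet-like cells, where 158 held Atoh1, none of the other 6 was called, beside 1.42% of all genes higher and 0.368% lower. Dll1 was still found in 15.8% of the cells with Atoh1 and 6.68% of the others, higher in 6 of 8 sets. Spdef was found in 22.15% and 8.57%, higher in 7 of 8 sets. In levels Dll1 was higher by 0.94 in 3 of 3 sets, under the size for a call. Most genes were found with Atoh1 more often than expected from their shares in this class (median 1.38 times).

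**Figure D3:**
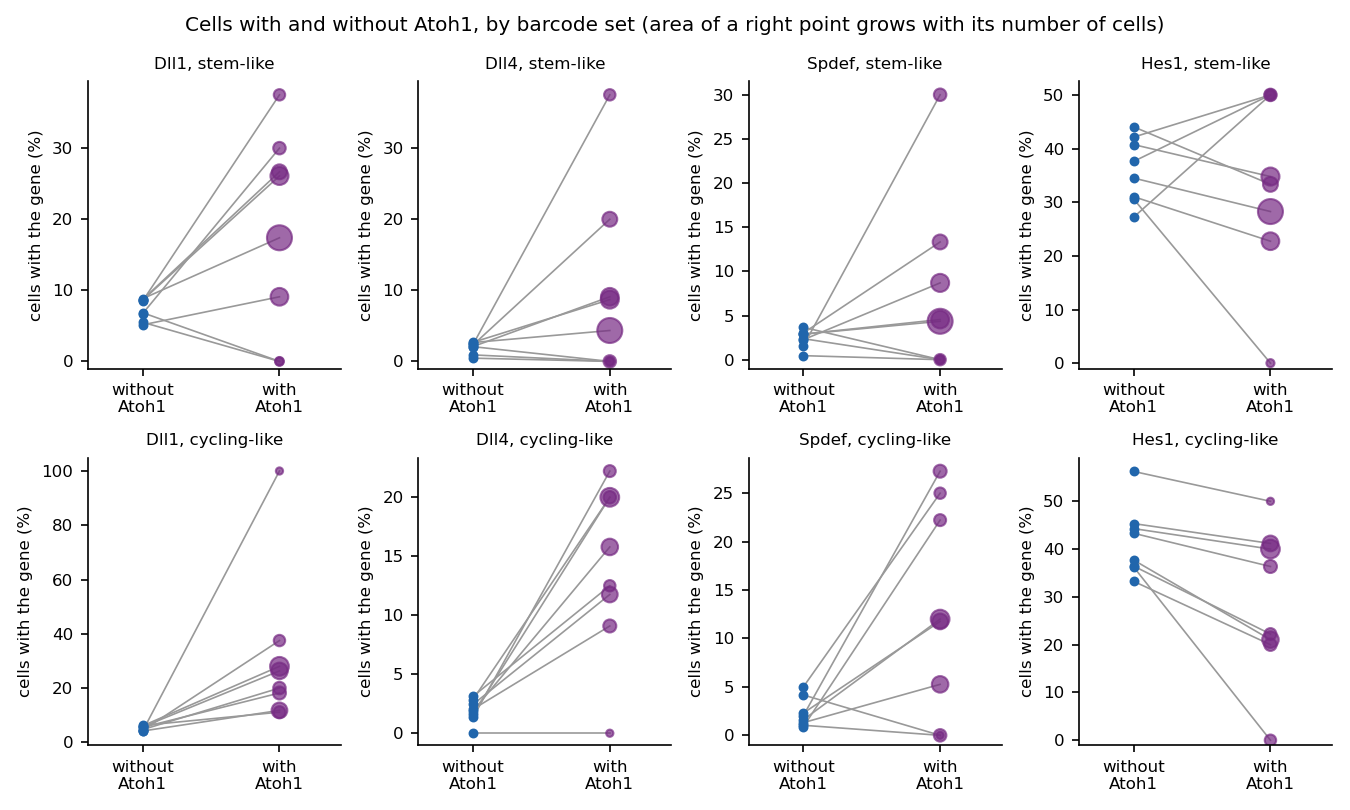
Share of cells holding Dll1, Dll4, Spdef or Hes1 (vertical axis, %) among cells without Atoh1 (left points) and with Atoh1 (right points), for stem-like cells (upper panels) and cycling-like cells (lower panels). Each line is 1 of the 8 barcode sets, the right points grow with the number of cells with Atoh1, and the vertical scale differs between panels. In cycling-like cells all lines rise for Dll1 and all fall for Hes1, and the Dll1 point at 100% rests on 2 cells.

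Detected genes and goblet markers moved with Atoh1. Median detected genes were 3112 in cycling-like cells with Atoh1 and 2946.5 in those without, and the goblet marker sum was 2443 and 752.7 ppm, higher in 5 of 5 sets. The enterocyte marker sum was 1146 and 1816 ppm, lower in 5 of 5 sets, and the stem marker sum 4247 and 3833 ppm. In stem-like cells with and without Atoh1, detected genes were 2811 and 2685 and the goblet sum 2853 and 2164 ppm. Compared within 3 equal groups of cells by detected genes, Dll1 and Atoh1 were found together in cycling-like cells at 3.98 times the number expected from their shares, against 4.10 times with no such division. Dll4 gave 6.09 and 6.27 times and Spdef 5.74 and 5.90 times, each slightly smaller with the division. Within barcode sets they were 3.97 for Dll1, 6.31 for Dll4 and 5.58 for Spdef.

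The same ratio was taken for every gene with at least 2 expected cells. Genes were not matched on their expected number, and ratios scatter most close to 2 expected cells. Dll4 and Spdef lay close to that limit in cycling-like cells, so their ranks are a description only. Among 11920 genes in cycling-like cells, whose median ratio was 1.02 and of which 3.15% reached 2, Dll4 had the highest ratio with Atoh1 (16 cells, 2.55 expected). Cbfa2t3, a transcriptional corepressor, followed at 6.06, then Spdef (13 cells, 2.21 expected), and 11 genes were above Dll1 (24 cells, 5.86 expected). Hes1 was at 0.73 (30 cells, 40.9 expected), at percentile 10.6 of all genes. Among 12411 genes in stem-like cells, with a median of 1.03 and 1.33% at 2 or more, Dll4 was at 3.69 (12 cells, 3.26 expected) with 1 gene above it, Etv5, a transcription factor, at 4.08. Spdef was at 2.89 (10 cells) with 15 genes above it, Dll1 at 2.44 (26 cells) with 52 above it, and Hes1 at 0.88. The ratios in the stem-like class were thus smaller, though the difference between the classes was not tested. Enterocyte-like cells gave 0.86 for Dll1 (7 cells, 8.11 expected), 0.35 for Dll4 (1 cell, 2.85 expected) and 0.34 for Hes1 (3 cells, 8.72 expected).

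**Figure D4:**
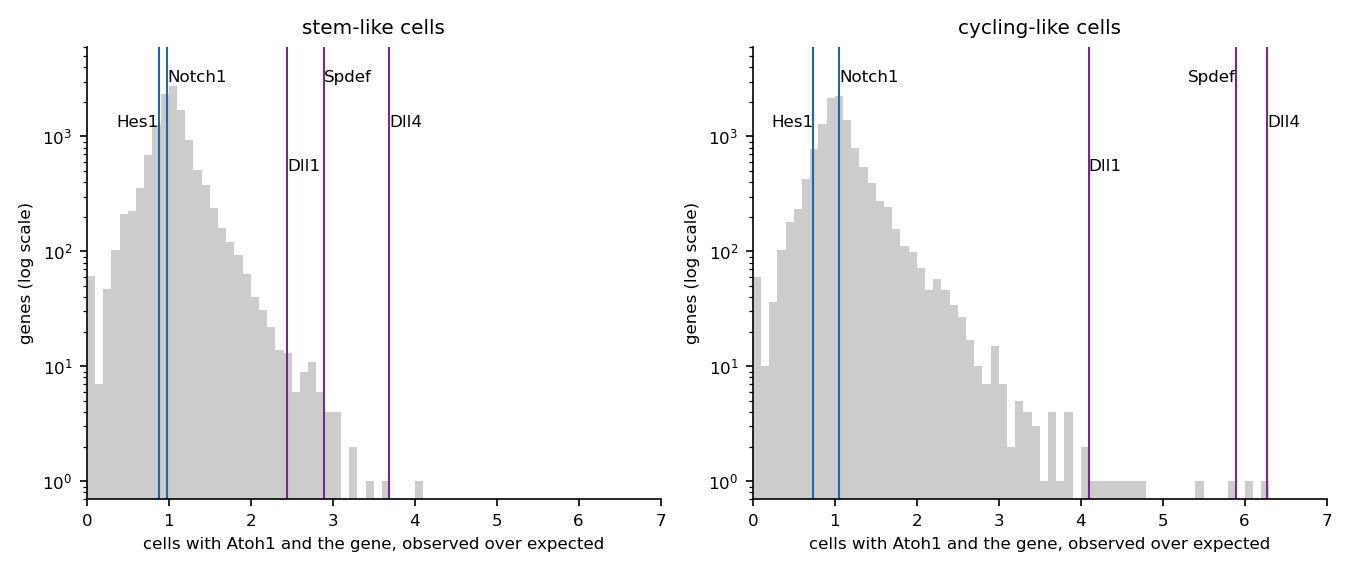
Number of genes by the ratio of cells holding the gene and Atoh1 to the number expected from their shares, in stem-like and cycling-like cells, on a log scale of genes, with lines at 5 of the genes described. In cycling-like cells Dll4 (6.27), Spdef (5.90) and Dll1 (4.10) lie in the right tail and Hes1 (0.73) to the left of the bulk.

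Most cycling-like cells with both a ligand and Atoh1 had goblet markers above the class median. The goblet marker sum here is of deposited values in a cell, not ppm, with a median of 3 in cycling-like cells. Of the 101 cells with Atoh1, 75 had a sum above the class median, and all 24 cells with Dll1 were among them. Expected numbers come from the shares of both genes within the same part of the cells, and above the median 7.26 cells with Atoh1 and Dll1 were expected. At or below the median there were 26 cells with Atoh1 and 0 with Dll1, where 0.762 were expected, which is too few to show a difference. Dll4 was found with Atoh1 in 13 cells above the median (3.41 expected) and in 3 at or below it (0.268 expected). In stem-like cells Dll1 gave 3.19 times the expected number above the median and 1.49 times at or below it. The part of the goblet markers in these ratios was not tested.

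Dll1 and Dll4 were also found together with each other, in 17 cycling-like cells where 4.70 were expected and in 21 stem-like cells where 9.10 were expected. Notch1 and Hes1 were found together in 475 cycling-like cells, 1.19 times the 400.8 expected and above 1 in 8 of 8 sets, and in 664 stem-like cells, 1.10 times the 604.3 expected. Within 3 equal groups by detected genes the ratio was 1.16 in cycling-like and 1.02 in stem-like cells, where 7 of 8 sets had been above 1 without that division. In goblet-like cells Spdef and Atoh1 were found together in 35 cells, 2.24 times the number expected, and at 1.67 times within sets. The median over all genes in that class was 1.38 and 7.98% of genes reached 2, so the ratio of Spdef, with 451 of 11263 genes above it, stands less apart. Gfi1 with Atoh1 was at 3.16 (7 cells, 2.22 expected) with 34 genes above it, and 2.20 within sets. Dll4 with Atoh1 was at 2.46 (9 cells, 3.66 expected) with 253 above it, and 1.75 within sets. Both lay close to the limit of 2 expected cells, where ratios scatter most.

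Cells holding Atoh1 were spread over all classes. Of 853 such cells, 158 were goblet-like (18.5%, where 5.89% of all cells were goblet-like), 131 stem-like, 101 cycling-like, 90 enterocyte-like and 327 in unnamed clusters. Of 113 cells with both Atoh1 and Dll1, 26 were stem-like, 25 goblet-like, 24 cycling-like, 7 enterocyte-like and 25 in unnamed clusters. As shares of each class these are 0.577% of stem-like, 1.52% of goblet-like, 0.748% of cycling-like and 0.163% of enterocyte-like cells. Of 69 with both Atoh1 and Spdef, 35 were goblet-like (50.7%).

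Of the 57 genes called higher in cycling-like cells with Atoh1, a few were chosen for naming after their values were seen. Guca2a, which encodes guanylin, was at 243.1 ppm with Atoh1 and 23.4 ppm without, Tff3, a goblet cell peptide, at 1128 and 239.1 ppm, Kit at 66.4 and 9.18 ppm, Cbfa2t3 at 49.8 and 4.97 ppm and Etv5 at 42.3 and 6.95 ppm. Reg1 was at 10.6 and 171.6 ppm, the other way round. Etv5, Kit and Cbfa2t3 were also called higher in stem-like cells with Atoh1, by 2.38, 1.53 and 1.52 on the log2 scale. From the pathway list, Hes6, Foxa2, Foxa3 and Cbfa2t3 were called higher with Atoh1 in cycling-like cells, beside 0.594% of all genes. They were 1 of 4 targets and 3 of 10 secretory factors past 10 ppm. Klf4 and Cbfa2t3 were called in stem-like cells, beside 0.166%, and Creb3l4 and Cbfa2t3 in goblet-like cells, beside 1.42%. Each pair was 2 of 10 secretory factors past 10 ppm. In cycling-like and stem-like cells, Cbfa2t3 and Etv5 passed 10 ppm only through the cells with Atoh1. The same held for Kit in cycling-like and Creb3l4 in goblet-like cells.

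The rest of the pathway was followed through a list of 72 genes, 67 of them in the table. In stem-like against enterocyte-like cells 37 passed 10 ppm, and 18 were called higher and 5 lower, where 33.3% and 16.5% of all genes were, and the list's median log2 difference was 0.64 beside 0.42 for all genes. The kinds of gene that follow are counted out of all their genes in the table, past 10 ppm or not. Their counts are therefore not set against those shares. Of the 3 other receptors, Notch2 was called, at 65.4 ppm in stem-like and 3.70 ppm in enterocyte-like cells (3.82). Of the 7 nuclear factors, 5 were higher, among them Rbpj, the DNA-binding partner of Notch, at 63.1 and 27.2 ppm (1.19), and Maml3, its coactivator, at 352.7 and 58.9 ppm (2.56). Of the 9 genes for receptor cleavage, none was higher and 1, Furin, was lower (-1.07). Of the 10 targets, 3 were higher, with Sox9, a crypt transcription factor, at 177.7 and 11.1 ppm (3.89). Numb, which restrains Notch, was lower, at 172.5 and 408.8 ppm (-1.24). Of the enzymes that modify receptors and ligands, Pofut1 (1.65), Poglut1 (2.33) and Mib1 (1.56) were higher, and Rfng (-1.09) and Neurl3 (-1.14) lower. Among 20 secretory factors 5 were higher and 1 was lower, namely Klf4, at 25.6 and 203.9 ppm (-2.95).

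In cycling-like cells 37 genes of the list passed 10 ppm, 15 higher and 5 lower than in enterocyte-like cells, beside 32% and 16.6% of all genes. Nrarp, a target that feeds back on Notch, was at 34.8 ppm there and 8.68 ppm in enterocyte-like cells (1.89), and was lower in stem-like than in cycling-like cells (-1.11). Goblet-like cells had 34 past 10 ppm, 6 higher and 1 lower, beside 11.5% and 10.9% of all genes. The higher ones included Notch2 at 19.0 and 3.70 ppm (2.09), Creb3l1, a factor of secretory cells, at 63.5 and 9.96 ppm (2.56), Cbfa2t3 at 29.6 and 3.06 ppm (2.91) and Foxa3 (2.67). Enteroendocrine-like cells had 36 past 10 ppm, 9 higher and 3 lower, beside 10.6% and 11.1%, with Neurod1, an endocrine factor, at 36.2 and 4.04 ppm (2.88). Tuft-like cells had 37 past 10 ppm, 13 higher and 4 lower, beside 16.8% and 17.9%, with Pou2f3, the tuft cell factor, at 81.5 and 1.47 ppm (5.06). Against enterocyte-like cells, Nrarp, Neurod1, Pou2f3, Creb3l1, Cbfa2t3 and Notch2 passed 10 ppm only through the class where they were high.

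Along the intestine, enterocyte-like cells were divided within each set into 3 parts by a score of 8 distal minus 8 proximal genes, since no file used here ties a cell to its segment. None of the 7 genes was called between the distal and proximal parts, where 11.5% of all genes were higher and 13.1% lower. Dll4 was at 2.34, 6.95 and 9.35 ppm from the proximal to the distal part, 1.63 higher on the log2 scale in 6 of 8 sets, and its mean was under 10 ppm. Dll1 was at 15.1 and 19.5 ppm in the proximal and distal parts and Hes1 at 17.6 and 17.1 ppm. Their direction turned with the scoring genes: Dll1 was -0.13 with the proximal genes alone and 0.71 with the distal genes alone, and Hes1 0.36 and -0.60. Dll4 stayed higher in the distal part, at 1.48 and 1.95. Median detected genes were 2897 in the proximal and 1831 in the distal part, and their part in the Dll4 values was not tested.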

How the data were processed

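Epithelial cells of the diet group (8 samples) had been profiled by droplet single-cell RNA sequencing. Cell Ranger and mm10 are named, per the submitters' processing notes, with no version of the former. The table deposited by the authors, 20090 genes by 27881 cells, was handled as a score: its values were whole, but 2 outnumbered 1 in 25.3% of cells, and totals per cell lay between 2764 and 9739 (median 5503; median detected genes 2219). The planned count test was therefore not used, and depth is unknown.

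Cells under 500 detected genes or over 25% mitochondrial values were dropped (2 cells). Scrublet, at an expected rate of 0.06, marked 45 doublets (0.161%), too few for a working caller unless doublets had been taken out earlier, so some may remain. Clustering left out the 7 genes and the pathway list (2000 variable genes, 30 principal components, 15 neighbours, Leiden resolution 2) and gave 32 clusters, of which 14 stayed unnamed. With 14 marker lists, a name needed at least 3 markers at 10 ppm or more with a log2 fold of 1, a median of 0.5 and a lead of 0.5 over the next list, thresholds set after the clusters were seen. Values were summed per class and barcode set. The named genes were the 7 genes, the pathway list, the 5 genes most like each of the 7 over clusters, and genes leading the cells with Atoh1. Gene positions are from GENCODE vM21. Scripts were tested on simulated data. The genes and lists were chosen with earlier results of these data known. Alternatives changed resolution, filters, pseudocount, scaling, cells and sets. Tools were scanpy 1.11.5, leidenalg 0.10.2, igraph 0.11.9, scikit-learn 1.9.0, scipy 1.17.1, numpy 2.4.6, pandas 2.3.3 and matplotlib 3.10.9 under Python 3.11.15.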

Additional observations from a re-analysis of the deposited data

Results flagged for a closer look

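In 35 combinations of gene and class with 7 or 8 barcode sets, 6 had a set far from the others by Dixon's test. For normally spread values chance gives this in about 1 in 20, and whether these levels, some of them 0, are so spread was not tested. Hes1 in cycling-like cells of set 4 was 147.3 ppm, above the other sets, and Dll4 there was 0 ppm, below them, in a set with 50 cycling-like cells. Dll1 in enteroendocrine-like cells of set 2 (27 cells) was 33.67 ppm, the highest. Gfi1 was highest in cycling-like cells of set 6 at 2.014 ppm, in enteroendocrine-like cells of set 4 (35 cells) at 6.836 ppm and in enterocyte-like cells of set 7 at 1.611 ppm.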

How the results depend on the processing

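Of 455 class differences recomputed under other settings 425 moved by less than the spread over sets, as did 531 of 546 levels. Most of these settings only left out barcode sets and kept most of the cells, and the spread was wide in classes with few cells per set. Little movement was therefore likely from the start, and nothing is read from these counts. Notch1 and Hes1 in stem-like and cycling-like cells and Atoh1 and Spdef in goblet-like cells stayed above enterocyte-like cells in all settings run. With 10 ppm added in place of 1, Notch1 in stem-like cells gave 2.79 and Atoh1 in goblet-like cells 1.25. At resolution 1 the enteroendocrine-like class was another group of 33 cells with 4.73% of the main ones, and 2 of the 7 genes were called higher there, with 1714 of all genes; Atoh1, Spdef and Dll1 were then lower, at -2.54, -2.26 and -4.42. Tuft-like cells gave 2 of the 7 genes and 2351 of all genes at resolution 1 and 3 of the 7 with no filter on low values. With no filter, 4926 of all genes were higher in stem-like cells.

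Leaving out 1 set gave 645 (without set 7) to 1548 (without set 4) genes higher in goblet-like cells, 0 to 1 of the 7 genes in enteroendocrine-like and 1 to 2 in tuft-like cells, the higher count without set 4 in both. Among genes higher in cells with Atoh1 it gave 83 to 109 in cycling-like and 16 to 52 in stem-like cells (57 and 16 with all sets), and 1 to 2 of the other 6 genes in stem-like cells (2 without set 2, 3 or 7). A call needs the same direction in every set, so leaving out a set removes a condition and also changes the pooled levels. The part of each in these shifts was not tested. In goblet-like cells the ratio of Atoh1 with Spdef ran from 1.90 to 3.15 (without set 7) and that of Notch1 with Hes1 from 1.08 (without set 4) to 2.69 (without set 7). The following were chosen after seeing the data. Without sets 4 and 7, 1702 genes were higher in goblet-like cells, 1 of the 7 genes in enteroendocrine-like cells, and the ratio of Atoh1 with Hes1 in goblet-like cells was 0.77. With 10 ppm added, 27 genes were higher with Atoh1 in cycling-like and 4 in stem-like cells, and with no filter 25 in stem-like cells, 2 of them among the other 6 genes. In cells at or below the median goblet marker sum, the ratio with Atoh1 was 1.49 for Dll1 in stem-like cells, and 0 for Dll1 and 11.2 for Dll4 in cycling-like cells.

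Within 3 equal groups by detected genes, Notch1 with Hes1 gave 1.02 in stem-like cells. Requiring a value of at least 2 left 8 stem-like, 10 cycling-like and 35 goblet-like cells with Atoh1, too few for the ratios to hold. With Atoh1, stem-like cells then gave 0 for Dll1, Dll4, Spdef and Hes1; cycling-like cells 33.8 for Dll1 (2 cells), 106.9 for Dll4 (1 cell) and 0 for Spdef and Hes1; and goblet-like cells 1.34 for Dll1, 0 for Dll4 and 0.92 for Spdef. Notch1 with Hes1 gave 1.34, 1.84 and 2.79. No paired analysis was possible because no test was made on the pooled table; differences between classes within each barcode set are given in its place. Unknown depth, the 14 unnamed clusters and the few cells with Atoh1 in each set limit all of these values.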
